A study of Mus musculus with 24 samples.

Results

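The 41 genes described here build, drive and check the mitotic spindle. They are the members of a fixed list, found by symbol among the 27368 genes of a table of read counts from 24 mouse tumours, and all 41 were among the 16560 genes with enough reads to test. The tumours were grown from the mouse squamous carcinoma line SCC7, placed under the flank skin of a female C3H mouse aged 6 to 8 weeks at 1000000 cells per animal. The cells carried either an empty vector (NC) or miR-21-5p overexpression (OE), and treatment began at a tumour volume of about 300 mm³. The 8 groups of 3 tumours each were NC and OE tumours given sham treatment, radiation alone (IR), olaparib alone, or radiation with olaparib. Radiation was 8 Gy of X-rays a day for 3 days with lead over the rest of the body. Olaparib, an inhibitor of the repair enzyme PARP, was injected into the abdomen at 50 mg/kg, timed 2 hours ahead of each fraction, and once more on the day after the last fraction. Every group shared the host strain, the parent line and the site of growth. Whether the OE and NC cells were 1 clone or a pool is not given in the sources used here. The profiles are of whole tumours, so tumour cells and host cells were read together, and fewer cells of a type cannot be told apart from less RNA per cell.

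Many genes of this kind are switched on together late in the cell cycle and are close to silent in resting cells. Mki67, the gene of the antigen Ki-67, therefore serves as a marker of dividing cells in tumours. In resting or arrested cells the DREAM complex holds many genes of this kind off. In dividing cells its MuvB core joins the transcription factors B-MYB (the product of Mybl2) and FOXM1 and turns them on. Cdkn1a encodes p21, an inhibitor of cyclin-dependent kinases that p53 induces after DNA damage.

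The core promoter sequences of 5 members are shown because members of the list share the same short letter runs. MuvB is known to bind the letters TTTGAA, or the variant TTTAAA, close to the start of transcription, and the factor NF-Y binds CCAAT. Each line gives the 100 bases that end just before a transcription start in RefSeq's annotation of GRCm38.p6 (the mm10 build), read 5′ to 3′ on the gene's own strand. Capitals mark these letter runs or their reverse complements.
Cdk1, chr10:69352913-69353012, minus strand: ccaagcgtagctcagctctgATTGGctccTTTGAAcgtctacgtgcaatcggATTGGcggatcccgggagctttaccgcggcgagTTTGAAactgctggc
Cdc20, chr4:118437344-118437443, minus strand: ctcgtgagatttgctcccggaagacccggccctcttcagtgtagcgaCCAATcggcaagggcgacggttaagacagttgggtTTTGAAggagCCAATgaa
Kif11, chr19:37376282-37376381, plus strand: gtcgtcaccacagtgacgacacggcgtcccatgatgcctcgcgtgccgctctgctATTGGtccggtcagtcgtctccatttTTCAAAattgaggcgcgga
Ccnb1, chr13:100786487-100786586, minus strand: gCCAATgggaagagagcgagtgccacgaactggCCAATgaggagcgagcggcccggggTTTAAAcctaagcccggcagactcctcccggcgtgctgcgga
Top2a, chr11:99024190-99024289, minus strand: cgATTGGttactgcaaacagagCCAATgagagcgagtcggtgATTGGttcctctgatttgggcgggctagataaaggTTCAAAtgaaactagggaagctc
Promoter windows were found for 33 of the 41 members, and Ccna2, Cdc25c, Foxm1, Aurkb, Incenp, Kif20a, Tpx2 and Smc4 were not matched. From 250 bases before to 50 after the start, on both strands, TTTGAA was present in 23 of the 33 members (69.7%) and in 20.2% of the 27025 windows of all genes. Within 50 bases on either side, the shares were 63.6% and 5.72%. CCAAT was present in 69.7% of the members in the longer window, against 41.1% of all genes. TTTAAA was present in 27.3% against 14.9%. Both TTTGAA and CCAAT were present in 60.6% of the members and in 7.97% of all genes. In the same window 3 of 21 replication licensing and fork genes (14.3%) had TTTGAA, while 71.4% had CCAAT. The window of Mybl2 held none of these letter runs. TTTAAA reads the same on both strands, no motif contains another, and a match describes letters only.

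The groups used here follow the letters of each tumour's coded identifier, because the written labels name another group for 19 of the 24 tumours and a different radiation status for 8, and give the cell type as OE for all 24. Cdkn1a (chr17:29090979-29100722) was the check of radiation. Its level ranged from 184 to 342 CPM (counts per 1000000 counted reads, TMM-scaled) in the 12 tumours coded as unirradiated and from 603 to 765 CPM in 11 of the 12 coded as irradiated, with 332 CPM in the first tumour of the NC IR group (NC IR 1). Its log2 fold change with radiation was 1.36 ± 0.12 (SE; edgeR quasi-likelihood test, Benjamini-Hochberg adjusted p = 1.62e-06). The library labelled OE IR+olaparib 3 stood apart in another way, with the fibroblast collagens Col3a1 at 43604 CPM and Col1a1 at 43296 CPM, where the next highest tumours had 2969 and 1269 CPM. In that tumour the epithelial keratins Krt8 and Krt18 were at 0.285 and 0.317 CPM, where the next lowest tumours had 141 and 35.0 CPM. Epcam was low in every tumour (0.125 to 4.50 CPM), and the squamous keratin Krt5 was at 0 in 5 tumours and Krt14 in 1, while Krt8 and Krt18 were at those or higher levels in the other 23 tumours. Results below are given for all 24 tumours and again for the 22 without NC IR 1 and OE IR+olaparib 3. That exclusion was chosen after seeing the data, with the levels of the members known, and is defined by the Cdkn1a, collagen and keratin levels.

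Irradiated tumours had lower levels of mitosis genes than unirradiated ones. With all 24 tumours, 35 of the 41 members fell with radiation and none rose, where a gene is called at an adjusted p below 0.05 in the edgeR quasi-likelihood test over all genes. In the same comparison 17.5% of all tested genes were called lower. The median log2 fold change of the members was -1.0, with a range from -1.52 for Mybl2 to -0.74 for Aurka, and the median of all tested genes was 0.04. All 41 members were below 0, and without the 2 tumours all 41 fell, with a median of -1.09 and 23.3% of all tested genes called lower. When tumours were grouped by the written label instead, none of the 41 members was called by the edgeR test. An unadjusted p under 0.05 was found in 23 members, and in 30.8% of all tested genes in either direction. All 41 members were below 0 and the median was -0.63. Only 1 of all tested genes was called by that grouping. Library totals lay between 37099055 and 40004502 counts.

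**Figure D1:**
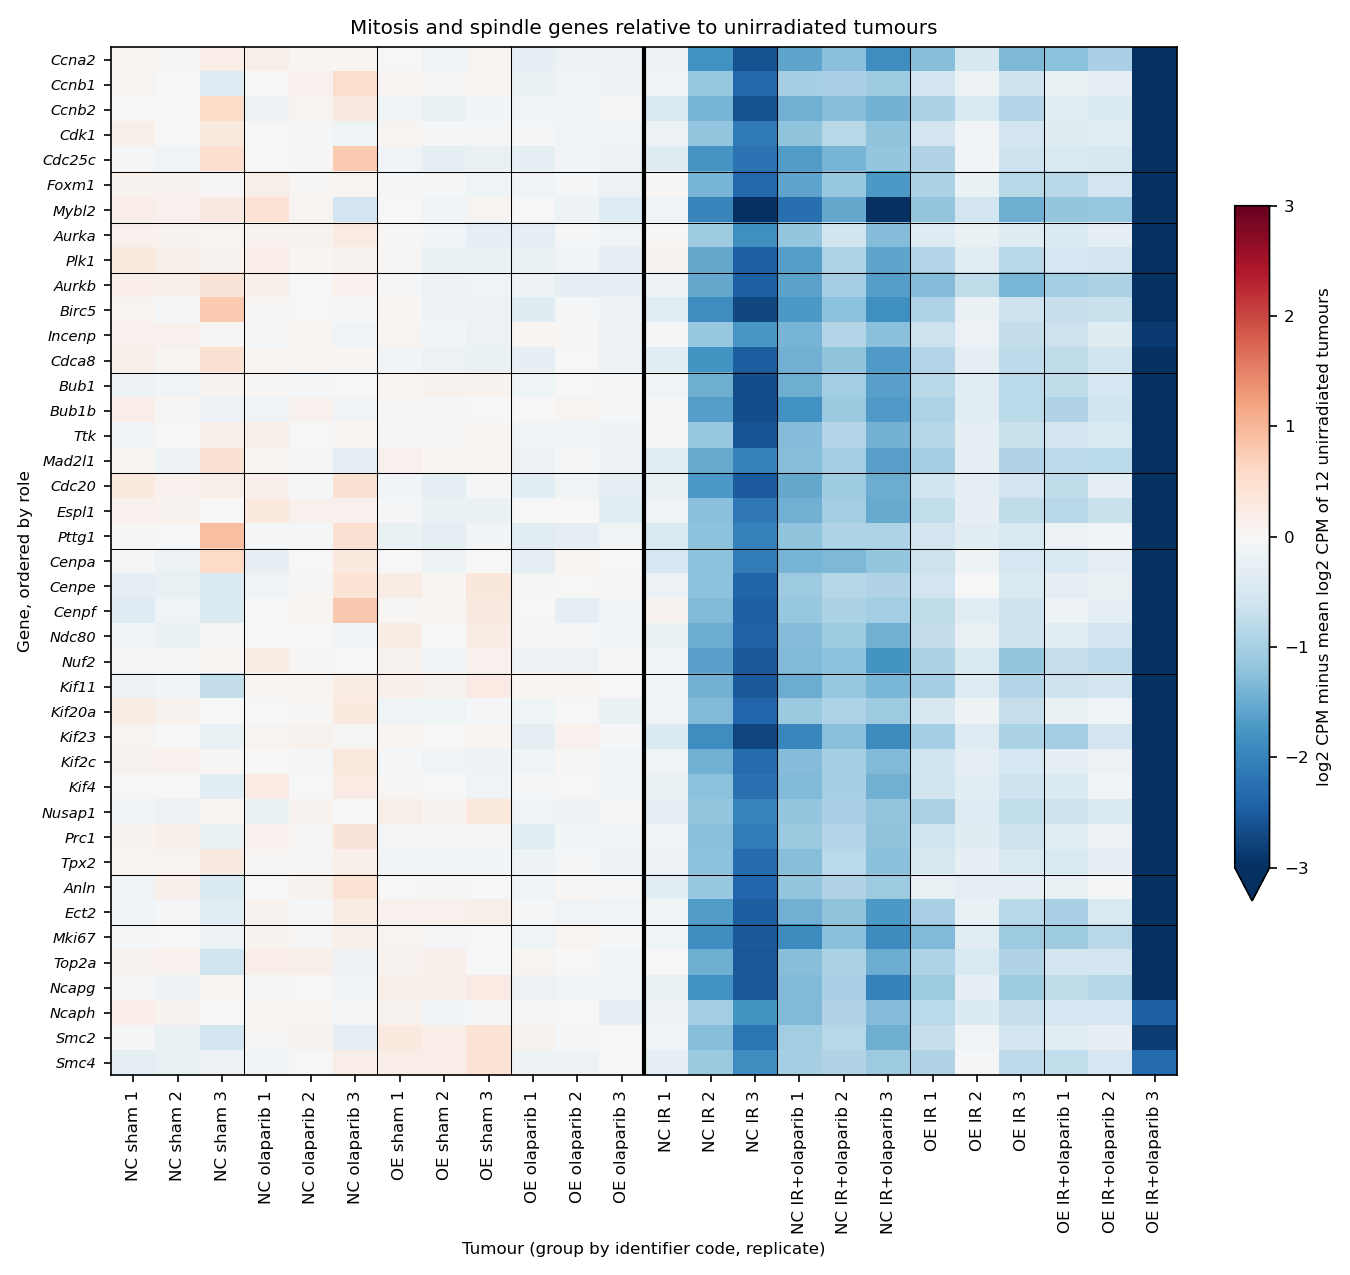
Colours show log2 CPM of each of the 41 genes (vertical axis, grouped by role) in each of the 24 tumours (horizontal axis, grouped by treatment), minus the mean of the 12 unirradiated tumours, with colours clipped at -3. All 41 genes lie, in every irradiated tumour other than NC IR 1, below the unirradiated mean. Of these tumours OE IR 2 has the highest sum of the 41 genes, while some genes, such as Anln, are higher in OE IR+olaparib 2. OE IR+olaparib 3 is the lowest tumour in all 41 genes.

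The summed level of the 41 members shows the same order of tumours. In the 12 unirradiated tumours the sum ran from 4466 to 5322 CPM. NC IR 1 had 4325 CPM, with 29 of its 41 members inside the unirradiated range, and OE IR+olaparib 3 had 254 CPM, the lowest of all 24 tumours in each of the 41 members. In the other irradiated NC tumours the sum was 1819 and 952 CPM after radiation alone and 1878, 2384 and 1814 CPM with olaparib. In the other irradiated OE tumours it was 2793, 3937 and 2879 CPM after radiation alone and 3225 and 3525 CPM with olaparib. Every irradiated sum was below every unirradiated one, with NC IR 1 closest to the unirradiated tumours. With NC IR 1 and OE IR+olaparib 3 set aside, every irradiated OE sum was above every irradiated NC sum. Cell type markers were counted beside the members. In all 24 tumours 7 of 10 macrophage, 8 of 10 skeletal muscle, 6 of 7 neutrophil and 4 of 10 fibroblast genes rose with radiation. Of the other lists 1 of 7 endothelial and 3 of 13 squamous genes rose, where 21.7% of all tested genes were called higher. Falling were 6 of 9 T cell genes and 1 squamous gene, where 17.5% of all tested genes were called lower. Among the 22 tumours 8 macrophage and 5 neutrophil genes rose, against 20.8% of all tested genes, and 6 T cell genes fell, against 23.3%. Skeletal muscle genes, with 2 of 10 called higher, were near the share of all genes. Of 10 fibroblast genes 3 rose and 3 fell, of 13 squamous genes 2 and 2, and of 7 endothelial genes 1 and 1. The summed fibroblast markers were 130108 CPM in OE IR+olaparib 3 and 4036 to 7738 CPM in the other irradiated tumours. The summed macrophage markers were 5292 to 14488 CPM in unirradiated and 2886 to 19443 CPM in irradiated tumours, with the lowest value in NC IR 1. The value of 14488 CPM was NC sham 3, and the next highest unirradiated one was 8427 CPM in OE olaparib 1. In the 22 tumours summed squamous markers were 1106 to 1853 CPM in unirradiated and 488 to 959 CPM in irradiated NC tumours. NC IR 1 had 1378 CPM. In OE tumours they were 741 to 1377 CPM and 1116 to 1655 CPM. The part of these cell types in the result was not tested.

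**Figure D2:**
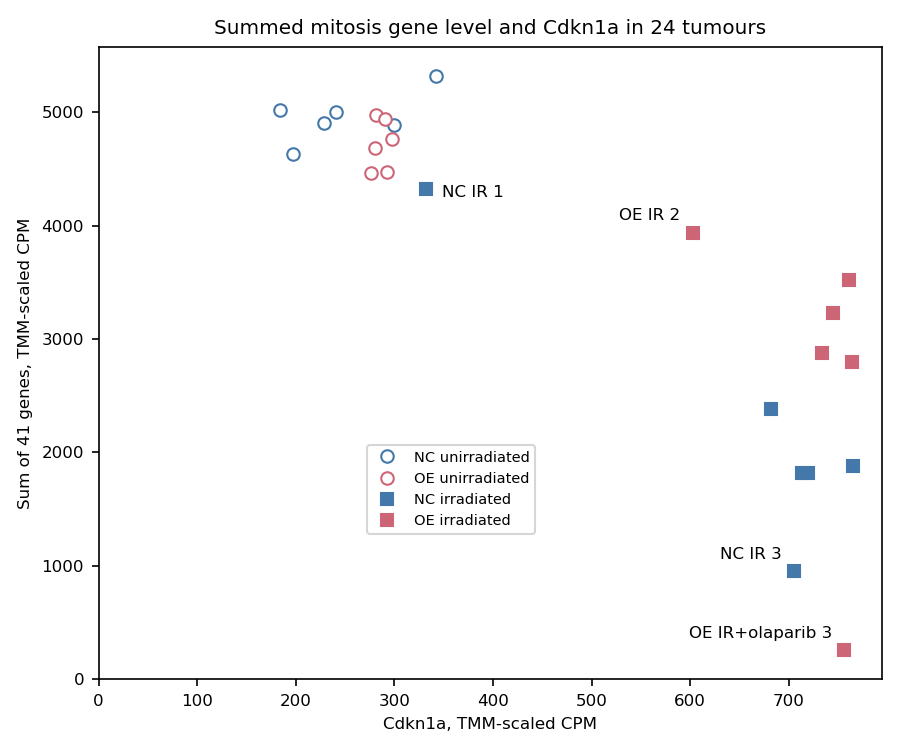
Each point is 1 of the 24 tumours, with the Cdkn1a level in CPM on the horizontal axis and the summed CPM of the 41 members on the vertical axis, with circles for unirradiated and squares for irradiated tumours and colours for NC and OE. NC IR 1 (332 CPM of Cdkn1a, sum 4325 CPM) lies beside the unirradiated tumours, while OE IR+olaparib 3 (756 CPM, sum 254 CPM) lies below all others.

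Mki67 (chr7:135689784-135716450), whose product coats mitotic chromosomes and keeps them apart, shows the pattern group by group. In unirradiated NC tumours its level was 401, 419 and 365 CPM after sham treatment and 444, 423 and 459 CPM after olaparib. Unirradiated OE tumours had 437, 404 and 419 CPM after sham treatment and 377, 436 and 408 CPM after olaparib. NC tumours had 379.8, 115 and 72.4 CPM after radiation alone and 109.8, 175 and 113 CPM after radiation with olaparib. For OE tumours the values were 167, 335 and 195 CPM and 198, 233 and 21.6 CPM. Only NC IR 1 among the irradiated tumours reached the unirradiated range, and the highest of the other NC values was 175 CPM. The log2 fold change with radiation was -1.27 ± 0.29 (edgeR adjusted p = 0.00303), and -1.42 ± 0.13 in the 22 tumours.

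Of the 5 genes of entry into mitosis, 4 fell with radiation in all 24 tumours. Cdk1 (chr10:69335146-69352912), the kinase that drives mitosis, ranged from 152 to 206 CPM with a median of 163 in the 12 unirradiated tumours. After radiation alone it was 149.5, 74.0 and 38.1 CPM in NC and 112, 155 and 112 CPM in OE tumours. After radiation with olaparib it was 72.8, 94.4 and 72.2 CPM in NC and 131, 131 and 7.57 CPM in OE tumours. Only OE IR 2 reached the unirradiated range, and NC IR 1 lay just below it. With radiation it changed by -0.83 ± 0.29 on the log2 scale (edgeR adjusted p = 0.0311). Its partner cyclin B1, Ccnb1 (chr13:100778739-100786486), ranged from 79.8 to 151 CPM with a median of 103 without radiation. Radiation alone left 99.0, 47.2 and 20.4 CPM in NC and 69.5, 93.1 and 68.0 CPM in OE tumours. With olaparib added, 52.1, 53.5 and 50.0 CPM were measured in NC and 91.3, 86.6 and 1.96 CPM in OE tumours. NC IR 1 and 3 OE tumours lay inside the unirradiated range, whose lowest value was NC sham 3, and the change of -0.80 ± 0.35 did not pass the edgeR test (adjusted p = 0.0755). Ccna2, the S and G2 phase cyclin A2, had the largest change of this group at -1.33 ± 0.32 (edgeR adjusted p = 0.00409). Ccnb2, a second B-type cyclin, changed by -1.09 ± 0.33 and the CDK1-activating phosphatase Cdc25c by -1.06 ± 0.34.

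Both transcription factors of the list fell. Mybl2 (chr2:163054327-163084688), which encodes B-MYB, ranged from 19.0 to 38.6 CPM with a median of 29.3 in unirradiated tumours. In irradiated NC tumours it was 26.5, 7.23 and 3.33 CPM after radiation alone and 5.91, 9.78 and 3.58 CPM after radiation with olaparib. The OE tumours gave 12.4, 19.5 and 10.4 CPM and 12.6, 13.0 and 1.55 CPM. NC IR 1 and OE IR 2 overlapped the unirradiated range, of which NC olaparib 3 was the low end. The change of -1.52 ± 0.32 (edgeR adjusted p = 0.00165) was the largest of the 41 members. Foxm1 (chr6:128362994-128375886), the G2 and M phase activator, ranged from 106 to 135 CPM with a median of 119.7 in unirradiated tumours. NC tumours had 123, 45.7 and 23.4 CPM after radiation alone and 40.2, 54.8 and 36.5 CPM after radiation with olaparib. For OE tumours the values were 62.1, 104 and 67.8 CPM and 67.6, 82.2 and 4.05 CPM. Only NC IR 1 overlapped the unirradiated range, and the change was -1.05 ± 0.31 (edgeR adjusted p = 0.0137).

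Of the 2 kinases of spindle poles and mitotic progression, Plk1 fell and Aurka did not pass the test. Plk1 (chr7:122159435-122169884) ranged from 71.3 to 107 CPM with a median of 89.5 in unirradiated tumours. After radiation alone it was 94.0, 30.0 and 16.0 CPM in NC and 47.1, 69.5 and 48.9 CPM in OE tumours. After radiation with olaparib it was 27.6, 45.8 and 29.2 CPM in NC and 60.6, 59.6 and 1.65 CPM in OE tumours. NC IR 1 alone lay in the unirradiated range, with a change over all groups of -1.0 ± 0.35 (edgeR adjusted p = 0.0308). Aurka (chr2:172356190-172370886), the spindle-pole kinase, ranged from 34.6 to 50.9 CPM with a median of 44.3 without radiation. Radiation alone left 43.5, 20.3 and 11.8 CPM in NC and 32.7, 37.2 and 32.9 CPM in OE tumours. With olaparib added, 19.1, 28.1 and 17.2 CPM were measured in NC and 31.7, 35.0 and 1.74 CPM in OE tumours. NC IR 1, OE IR 2 and OE IR+olaparib 2 overlapped the unirradiated tumours, and its change of -0.74 ± 0.29 was the smallest of the 41 (edgeR adjusted p = 0.0511).

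All 4 genes of the chromosomal passenger complex, which corrects faulty attachments of chromosomes to the spindle, fell. Its kinase Aurkb (chr11:69045624-69051664) ranged from 57.0 to 90.5 CPM with a median of 67.2 in unirradiated tumours. In irradiated NC tumours it was 62.3, 23.7 and 12.6 CPM after radiation alone and 22.6, 34.6 and 21.9 CPM after radiation with olaparib. The OE tumours gave 27.9, 40.7 and 26.6 CPM and 34.2, 35.8 and 4.34 CPM. NC IR 1 was again the only irradiated tumour in the unirradiated range. The change was -1.27 ± 0.26 (edgeR adjusted p = 0.00161). Birc5, which encodes the targeting subunit survivin, changed by -1.18 ± 0.32, Cdca8, the borealin gene, by -1.12 ± 0.25, and the scaffold gene Incenp by -0.85 ± 0.21.

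All 4 spindle checkpoint genes, which delay anaphase until every chromosome is attached, also fell. Bub1b (chr2:118598202-118641592), the gene of the inhibitor BUBR1, ranged from 86.0 to 110.1 CPM with a median of 95.9 without radiation. NC tumours had 92.2, 30.8 and 15.3 CPM after radiation alone and 27.3, 44.5 and 29.5 CPM after radiation with olaparib. For OE tumours the values were 50.8, 77.3 and 55.0 CPM and 51.2, 63.3 and 2.57 CPM. Every irradiated tumour but NC IR 1 was below the unirradiated range, and the change was -1.14 ± 0.33 (edgeR adjusted p = 0.0118). The checkpoint kinase gene Bub1 changed by -1.06 ± 0.34, the MPS1 kinase gene Ttk by -0.93 ± 0.31, and Mad2l1, the gene of the Cdc20-binding protein MAD2, by -1.09 ± 0.21. Mad2l1 had the lowest adjusted p of the 41 members in the edgeR test (0.00111).

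The 3 genes of anaphase onset fell as well. Cdc20 (chr4:118432901-118437343), which activates the anaphase-promoting complex, ranged from 87.4 to 148 CPM with a median of 105 in unirradiated tumours. After radiation alone it was 93.7, 33.1 and 19.3 CPM in NC and 72.2, 88.2 and 73.2 CPM in OE tumours. After radiation with olaparib it was 37.7, 51.5 and 39.0 CPM in NC and 63.9, 89.6 and 3.07 CPM in OE tumours. NC IR 1, OE IR 2 and OE IR+olaparib 2 overlapped the lower end of the unirradiated range. The change was -1.01 ± 0.32 (edgeR adjusted p = 0.02). Espl1, the gene of separase, which cuts cohesin, changed by -1.01 ± 0.22, and Pttg1, the gene of its inhibitor securin, by -0.83 ± 0.30.

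All 5 centromere and kinetochore genes were below 0, and 3 of them passed the test. Cenpa (chr5:30666877-30674837), the centromeric histone H3 variant, ranged from 76.9 to 143 CPM with a median of 92.8 in unirradiated tumours. Radiation alone left 66.6, 39.9 and 22.1 CPM in NC and 59.7, 84.2 and 65.8 CPM in OE tumours. With olaparib added, 35.8, 37.1 and 42.0 CPM were measured in NC and 68.9, 78.0 and 9.53 CPM in OE tumours. OE IR 2 and OE IR+olaparib 2 overlapped the unirradiated range and NC IR 1 did not, and the change was -0.94 ± 0.24 (edgeR adjusted p = 0.00539). Ndc80 and Nuf2, subunits of the complex that holds microtubules, changed by -0.96 ± 0.29 and -1.15 ± 0.29. The kinetochore motor gene Cenpe at -0.78 ± 0.34 and the kinetochore gene Cenpf at -0.83 ± 0.35 did not pass the edgeR test (adjusted p = 0.0761 and 0.0694).

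Among motors and spindle proteins 7 of 8 fell. Kif11 (chr19:37376382-37421863), the kinesin that pushes spindle poles apart, ranged from 65.6 to 127 CPM with a median of 113 without radiation. In irradiated NC tumours it was 99.2, 40.2 and 18.9 CPM after radiation alone and 38.4, 49.3 and 41.6 CPM after radiation with olaparib. The OE tumours gave 54.1, 82.9 and 58.1 CPM and 70.1, 73.7 and 3.74 CPM. The lowest unirradiated value was NC sham 3, and NC IR 1 with 3 OE tumours lay above it. The change was -1.06 ± 0.31 (edgeR adjusted p = 0.0131). Kif23, a central-spindle kinesin, changed by -1.28 ± 0.32, the bundling protein gene Nusap1 by -0.96 ± 0.28, the chromosome kinesin Kif4 by -0.89 ± 0.32 and the microtubule-depolymerising kinesin Kif2c by -0.86 ± 0.28. The spindle assembly factor Tpx2 changed by -0.84 ± 0.31 and the midzone crosslinker Prc1 by -0.84 ± 0.33, with Prc1 near the threshold (edgeR adjusted p = 0.0495). Kif20a, a kinesin of the midzone, changed by -0.80 ± 0.32 and did not pass (edgeR adjusted p = 0.0531). Of the 2 cytokinesis genes, Ect2, the activator of RhoA at the cleavage furrow, fell by 1.09 ± 0.32 on the log2 scale, and the actin scaffold gene Anln at -0.78 ± 0.36 did not pass (edgeR adjusted p = 0.0936).

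All 6 genes of condensin and mitotic chromosome structure fell. Top2a (chr11:98992947-99024199), which untangles sister DNA, ranged from 364 to 630.5 CPM with a median of 589 in unirradiated tumours. NC tumours had 552, 199 and 95.3 CPM after radiation alone and 226, 286 and 196 CPM after radiation with olaparib. For OE tumours the values were 289, 401 and 295 CPM and 378, 377 and 15.5 CPM. NC IR 1 and 3 OE tumours reached the unirradiated range, whose low end was NC sham 3. The change was -1.02 ± 0.34 (edgeR adjusted p = 0.0227). The condensin genes changed by -1.16 ± 0.30 (Ncapg), -0.89 ± 0.18 (Ncaph), -0.81 ± 0.24 (Smc2) and -0.86 ± 0.18 (Smc4).

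In 7 of the 41 members, every irradiated tumour lay below every unirradiated tumour over all 24 tumours: Ccnb2, Cdca8, Ndc80, Kif23, Nusap1, Tpx2 and Ncapg. Such genes made up 0.429% of all tested genes. In the 22 tumours the count was 19 of 41, against 1.15% of all tested genes. Values for the 41 members in that smaller set ranged from -1.73 (Mybl2) to -0.79 (Aurka) and passed the edgeR test in each member.

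**Figure D3:**
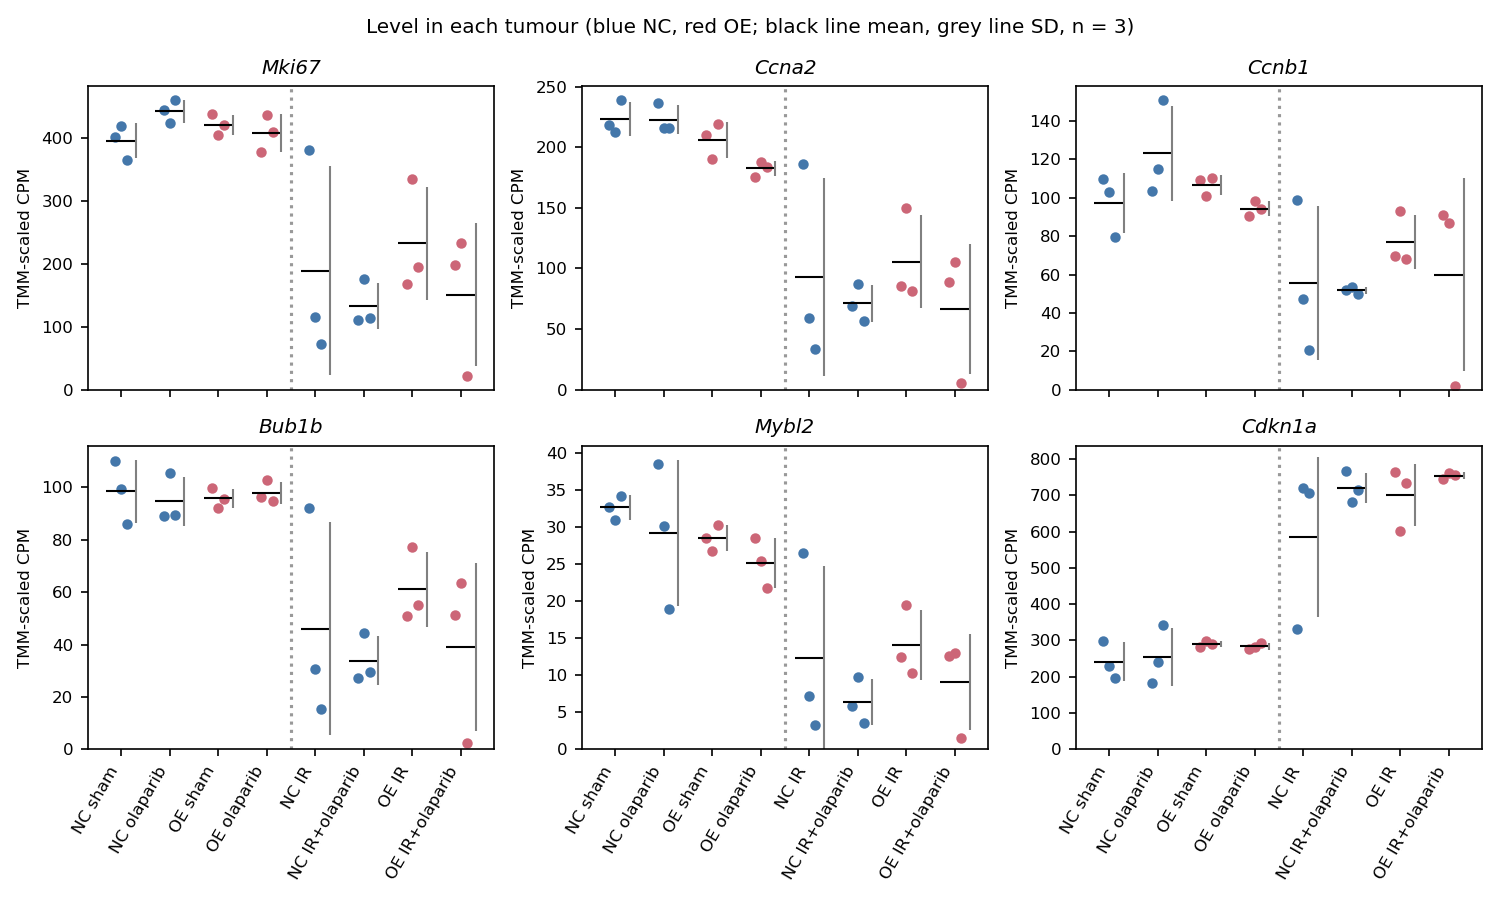
CPM of Mki67, Ccna2, Ccnb1, Bub1b, Mybl2 and Cdkn1a (vertical axes) in each tumour, by group on the horizontal axis, with the mean and SD of n = 3. In each of the 5 mitosis genes OE IR+olaparib 3 is the lowest tumour and NC IR 3 the next lowest, and Cdkn1a is high in every irradiated tumour but NC IR 1.

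The radiation effect was then compared within each of the 4 pairs of matched groups. In all 24 tumours together, no member was called in any pair by the edgeR test, although all 41 were below 0 in each. Median log2 fold changes were -1.06 in NC and -0.59 in OE tumours without olaparib, and -1.35 in NC and -0.92 in OE tumours with olaparib. Of all tested genes, the shares called lower were 5.4% and 0.0664% without olaparib and 0.634% and 1.37% with it, in the same order. At an unadjusted p under 0.05 the member counts were 11, 1, 25 and 9 of 41, all of them lower. Of all tested genes 29.6%, 14.8%, 22.1% and 28.3% had such a p, higher or lower. Only the third member share was above that of all genes, but the shares of all genes count both directions and are not matched to the members. DESeq2 called 3, 0, 9 and 0 members, and 8.38%, 1.77%, 4.77% and 3.73% of all genes it gave an adjusted p were called lower. Standard errors of single members were 0.36 to 0.73 in these pairs.

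Without NC IR 1 and OE IR+olaparib 3 the counts differed between the pairs. In NC tumours all 41 members fell after radiation alone (median -1.89, with 18.5% of all tested genes called lower) and all 41 fell after radiation with olaparib (median -1.39, 11.2%). In OE tumours 16 of 41 fell after radiation alone (median -0.61, 3.54%). After radiation with olaparib none of the 41 was called in OE tumours (median -0.43, 0.976%), while 19 had an unadjusted p under 0.05 (17.8% of all tested genes did). Leaving out either library by itself also changed the counts. Without NC IR 1 alone, 20 members fell in NC without olaparib (11.4% of all tested genes) and 5 with it (3.14%). Without OE IR+olaparib 3 alone the counts were 31 (12.6%) and 41 (6.28%). Mki67 as an example changed by -2.11 ± 0.28 in NC and -0.88 ± 0.23 in OE tumours without olaparib, and by -1.77 ± 0.23 and -0.92 ± 0.26 with it. The first 3 passed the edgeR test and the last did not (adjusted p = 0.0632). Each group then held 2 or 3 tumours, and the pairs with 2 tumours borrow their spread from the other groups.

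**Figure D4:**
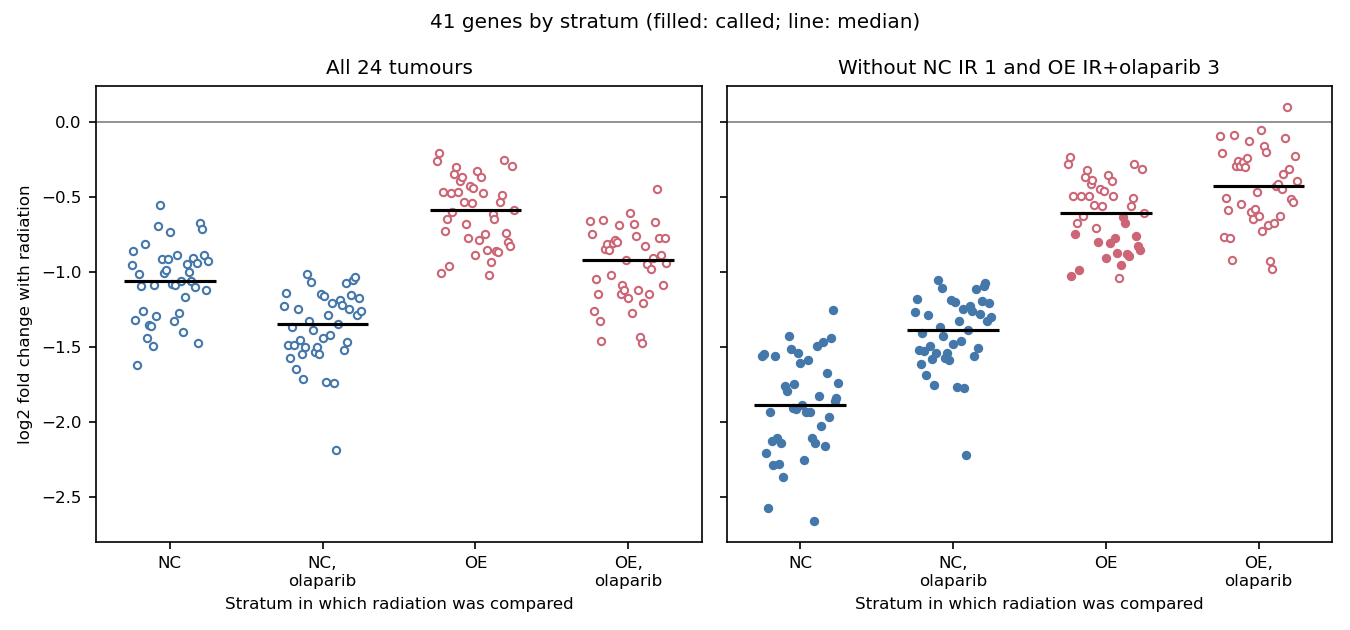
Log2 fold change with radiation of the 41 members (points, filled where called, with a line at the median) in each of the 4 matched pairs of groups, with all 24 tumours (left) and without NC IR 1 and OE IR+olaparib 3. The medians without the 2 tumours are -1.89 and -1.39 in NC and -0.61 and -0.43 in OE tumours.

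The comparison of OE with NC within irradiated tumours depended on the same libraries. With all 24 tumours no member was called in either direction by the edgeR test, no member had an unadjusted p under 0.05, DESeq2 called 0, and 0.755% of all tested genes were called higher in OE. The median log2 difference was 0.31, and 40 of 41 members were above 0, with Aurkb at -0.07 ± 0.37. Without NC IR 1 alone 0 members were called by edgeR and 7 had an unadjusted p under 0.05, while 2.03% of all tested genes were called higher and 23.7% had an unadjusted p under 0.05. Without OE IR+olaparib 3 alone 10 were called higher (7.52%), and without both all 41 were called higher in OE. The median difference was then 1.06, from 0.65 for Aurkb to 1.33 for Birc5, with edgeR adjusted p from 7.2e-05 to 0.00717, and 16.6% of all tested genes were called higher. Both exclusions move the difference in the same direction, since NC IR 1 was the highest irradiated NC tumour and OE IR+olaparib 3 the lowest OE tumour. A test that keeps all 24 tumours but weights each library by its quality (limma voom) called 34 members and 11.8% of all tested genes higher in OE.

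Single genes show how far the 2 sets of irradiated tumours lay apart once these libraries were set aside. Plk1 was 30.0, 16.0, 27.6, 45.8 and 29.2 CPM in the 5 NC tumours and 47.1, 69.5, 48.9, 60.6 and 59.6 CPM in the 5 OE tumours. All 5 OE values were above all 5 NC values, and the log2 difference was 1.08 ± 0.17 (edgeR adjusted p = 0.000401). Cdc20 was 33.1, 19.3, 37.7, 51.5 and 39.0 CPM in NC and 72.2, 88.2, 73.2, 63.9 and 89.6 CPM in OE tumours. Its groups did not overlap either, at 1.26 ± 0.15 (edgeR adjusted p = 0.000113). Mki67 overlapped, because NC IR+olaparib 2 at 175 CPM was above OE IR 1 at 167 CPM, and its difference was 1.05 ± 0.18 (edgeR adjusted p = 0.000803). Every OE tumour was above every NC tumour in 36 of the 41 members, against 10.5% of all tested genes, and the 5 that overlapped were Ccna2, Aurkb, Mki67, Ncapg and Smc4. Over 24 tumours the count was 0 of 41, against 0.779% of all genes.

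Several markers differed between the same 5 NC and 5 OE tumours. Krt8 ran from 141 to 223 CPM in NC and from 344 to 743 CPM in OE tumours (edgeR adjusted p = 0.00142). Krt18 ran from 35.0 to 165 CPM and from 89.1 to 459 CPM, overlapped, and did not pass (edgeR adjusted p = 0.104). The summed squamous markers were 488 to 959 CPM in NC and 1116 to 1655 CPM in OE. However, 7 of those 13 genes, Krt5 and Krt14 among them, were called lower in OE and 3 higher. Summed macrophage markers were 13503 to 19443 CPM in NC and 7917 to 15548 CPM in OE. Endothelial markers were 208 to 452 CPM and 129 to 176 CPM, and muscle markers 267 to 14903 CPM and 46.8 to 1697 CPM. The macrophage and muscle sums overlapped. By the edgeR test 2 of 10 macrophage, 6 of 7 endothelial and 4 of 10 muscle genes were called lower in OE and 0 higher. Of 16797 tested genes 2153 were called lower and 2787 higher. NC IR 3, with the highest muscle sum, also had the lowest member sum of the 5 NC tumours. Their part in the result was not tested. Cdkn1a did not pass the test between these tumours, with a log2 difference of 0.07 ± 0.14 (edgeR adjusted p = 0.746) and levels of 682 to 765 CPM in NC and 603 to 764 CPM in OE.

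**Figure D5:**
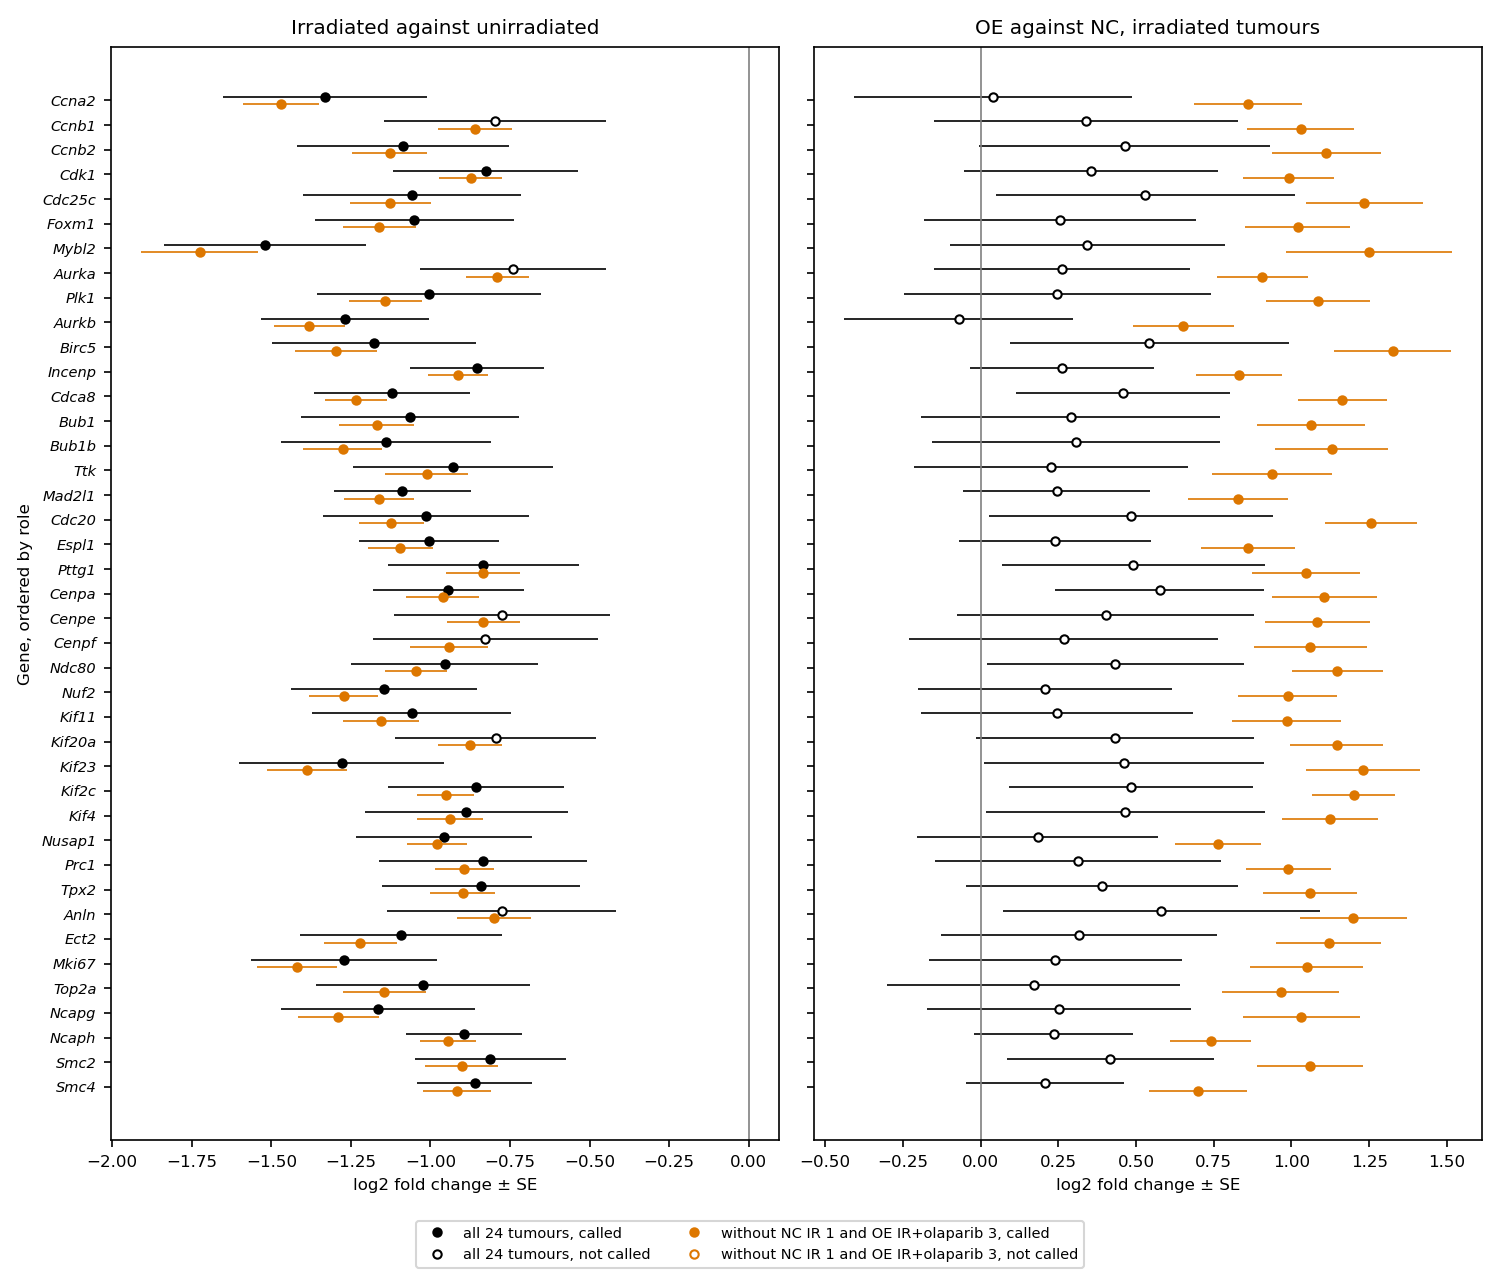
Log2 fold change with SE of each of the 41 members (vertical axis) for radiation and for OE against NC in irradiated tumours, in all 24 tumours (black) and in the 22 (orange), with filled points for genes called at an adjusted p below 0.05. With radiation 35 points are filled in black and 41 in orange, and for OE against NC none is filled in black and 41 in orange.

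Subtracting the NC change from the OE change tests this contrast directly. Over 24 tumours no member was called by the edgeR test, 0 had an unadjusted p under 0.05 and the median difference was 0.44, where 0.00604% of all tested genes were called higher. In the 22 tumours 40 of 41 were called higher, meaning a smaller fall in OE, with a median of 1.09, and 9.09% of all tested genes were called higher. Smc4 was the exception at 0.49 ± 0.21 (edgeR adjusted p = 0.115). For Cdc20 the difference was 1.61 ± 0.20, for Mybl2 1.43 ± 0.35 and for Mki67 1.04 ± 0.24. These counts share the 5 and 5 irradiated tumours of the preceding comparison.

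No effect of olaparib on mitosis genes passed the test. Without radiation 0 of 41 members were called by the edgeR test in all 24 tumours, 0 had an unadjusted p under 0.05 and DESeq2 called 0. The median was -0.04, and 0% of all tested genes were called in either direction. Mki67 differed by 0.06 ± 0.41 and Mybl2 by -0.17 ± 0.44 in that comparison. With radiation 0 of 41 were called, 0 had an unadjusted p under 0.05 and DESeq2 called 0. All 41 were below 0 with a median of -0.35, and 0% of all tested genes were called. In the 22 tumours the sign turned, with all 41 above 0, a median of 0.31 and 20 members at an unadjusted p under 0.05 (4.84% of all tested genes), none called. The difference of the radiation effect by olaparib was called in 0 members and 0% of all tested genes by the edgeR test, with a median of -0.33 in all 24 and 0.34 in the 22 tumours. At an unadjusted p under 0.05 the member counts were 0 and 8, against 3.55% and 4.51% of all tested genes.

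Without radiation no difference between OE and NC tumours passed the test. In all 24 tumours no member was called by edgeR, none had an unadjusted p under 0.05, DESeq2 called 0, and 0.00604% of all tested genes were called higher. The median difference was -0.11, with Mki67 at -0.01 ± 0.41, Plk1 at -0.32 ± 0.49 and Smc2 at 0.31 ± 0.33. In the 22 tumours, whose spread was smaller, 6 members and 14.3% of all tested genes had an unadjusted p under 0.05 and 0 members were called, where 0.0536% of all tested genes were called higher. Standard errors in that set were 0.11 to 0.23.

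Across the 24 tumours the members moved together. Pearson's r of each member with Mki67 in log2 CPM ran from 0.898 (Anln) to 0.989 (Kif23), with a median of 0.962. The 24 tumours share the contrast of radiation and the 2 libraries that stand apart, so r is a description and not a test. The 10 genes most like Mki67 among all others tested were Kif23, Ticrr, Ncapd2, Incenp, Nuf2, Trip13, Ccna2, Espl1, Shcbp1 and Kif15, with r from 0.989 to 0.983. Of these, 5 are members of the list and 5 are not. Among the 100 genes most like Mki67 there were 22 members of the list.

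Genes of the same machinery outside the list were counted in the radiation comparison with all 24 tumours, where 17.5% of all tested genes were called lower. Of 28 genes of the inner centromere and kinetochore 26 fell, with a median of -0.88. They include Pmf1, a subunit of the MIS12 complex, at -0.95 ± 0.16, and Cenpw, a CENP-T partner, at -1.29 ± 0.23. All 6 regulators of the anaphase-promoting complex fell, such as Cdca3 at -1.19 ± 0.28 and Fbxo5, the gene of its inhibitor EMI1, at -1.11 ± 0.27. Of 14 subunits of the complex 8 fell, and by less, with a median of -0.23 and Anapc15 at -0.56 ± 0.10. Of 11 further checkpoint and cohesion-protection genes 7 fell, including Trip13 at -1.15 ± 0.28 and Sgo1, the shugoshin gene, at -1.11 ± 0.31. Of 12 cell cycle kinases and phosphatases 10 fell, including Pkmyt1, a CDK1-inhibiting kinase, at -1.18 ± 0.24.

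Structural parts of the spindle and of chromosomes were counted in the same way, beside the same 17.5% of all tested genes. Of 22 further kinesins and spindle proteins 14 fell, with Kif22 at -1.20 ± 0.29 and Kif15 at -1.20 ± 0.32. Of 9 cytokinesis genes 6 fell, among them Racgap1, a partner of Ect2, at -1.08 ± 0.32 and Depdc1b at -1.57 ± 0.29. Of 9 condensin and cohesin subunits 8 fell, with Ncapg2 at -0.98 ± 0.19 and the cohesin gene Smc1a at -0.51 ± 0.09. Of 6 centriole duplication genes 5 fell, including the initiating kinase gene Plk4 at -0.97 ± 0.23. In the same comparison all 26 replication licensing and fork genes fell, with a median of -0.94, led by the thymidine kinase gene Tk1 at -1.79 ± 0.32.

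Regulators were called in both directions, in a comparison where 21.7% of all tested genes were called higher and 17.5% lower. Of 12 genes of the DREAM and MuvB complexes 6 fell and 1 rose, and Lin9 changed by -0.70 ± 0.13 and Lin54, whose product reads the TTTGAA letters, by -0.42 ± 0.10. Of 15 G1 to S regulators 8 fell and 3 rose, with E2f2 at -1.43 ± 0.20 and the D-type cyclin gene Ccnd3 at 0.49 ± 0.09. Of 7 CDK inhibitor genes 2 rose, Cdkn1a among them, and 4 fell, including Cdkn2c at -0.98 ± 0.15 and Cdkn2d at -0.80 ± 0.11. Each named value passed the edgeR test at an adjusted p below 0.05.

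In the 22 tumours, OE against NC within irradiated tumours, the counts called higher were 24 of 28 inner centromere and kinetochore genes, 9 of 11 checkpoint genes, 19 of 22 kinesins and spindle proteins and all 26 replication genes. Of 14 subunits of the anaphase-promoting complex 5 were called higher. In this comparison 16.6% of all tested genes were called higher. Tacc3, a spindle-pole protein, was higher in OE by 1.08 (edgeR adjusted p = 0.000213), and Racgap1 by 1.05 (edgeR adjusted p = 0.000345). The log2 difference of Ccnd3 was -0.37 (edgeR adjusted p = 0.0278). With all 24 tumours none of these genes was called.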

How the data were processed

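TRIzol RNA of 24 whole tumours was sequenced after library preparation with VAHTS Universal V5. The submitters' processing notes name fastp, HISAT2, HTSeq and mm10, and their versions, the annotation and the strand setting are not given in the sources used here, so counts of overlapping or antisense genes are uncertain. The authors deposited 1 table of raw counts per gene and tumour, whole numbers that are not normalized, with 37099055 to 40004502 reads per tumour and 0 columns of other samples. The reads carry no molecular identifiers and are not independent molecules, and precision is taken from the replicate tumours. The labels do not say whether each tumour of a group came from its own mouse, and p-values then measure only the spread between these tumours. Replicates were checked for duplicate libraries: their counts differed by a chi-square per gene of at least 14.4, so none was taken as a duplicate. NC sham 3, the third tumour left out below, differed by 210 and 216 from NC sham 1 and 2, which differed by 39.3. The same measure was 351 and 472 for NC IR 1 and 936 and 1060 for OE IR+olaparib 3 against their replicates.

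Tumours were grouped by the letters of the coded identifier, and the written label was tried as an alternative. The 41 members were matched by symbol. Differential expression was computed with edgeR 4.0.16 in R 4.3.3 (quasi-likelihood F-tests, TMM scaling, filterByExpr over 8 groups), fitted on all genes and tested on simulated data first. The call threshold was 0.05 on p-values adjusted by Benjamini and Hochberg. Shares of all tested genes at an unadjusted p under 0.05 count both directions. Levels are TMM-scaled CPM over 24 tumours, and ± marks the SE of a log2 fold change. Alternatives were DESeq2 1.42.0, limma 3.58.1 voom with sample quality weights, 2 other scalings, no filter, the compared groups alone, each tumour left out in turn, and the exclusion of 2 or 3 tumours, the last chosen after seeing the data.

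The members, the other gene lists and the markers were chosen with earlier results of these data known. The rule for named genes took 11 fixed members, the members with the largest and smallest radiation change, up to 4 genes of each other list by smallest p (some of which are named in the text), Cdkn1a, and the 10 genes whose log2 CPM (prior count 2) correlated best with Mki67. The other members are given by their fold changes. Gene positions and promoter windows come from RefSeq's annotation of GRCm38.p6.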

Additional observations from a re-analysis of the deposited data

Results flagged for a closer look

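The radiation effect differed between OE and NC tumours in 40 of the 41 members by a direct test of the difference (edgeR, adjusted p below 0.05) once NC IR 1 and OE IR+olaparib 3 were left out, a choice made after seeing the data. With all 24 tumours that test called 0 of 41. No explanation of the difference was tested.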

How the results depend on the processing

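The fall of the members with radiation kept its direction in all 41 genes under each of the 9 settings run on it. Counts called were 34 with DESeq2 size factors, 33 with library size only, 34 without the filter, 40 with DESeq2 and 41 with voom quality weights, but 0 with groups by the written label, and leaving out 1 tumour at a time gave 29 (without NC IR+olaparib 1) to 41 (without OE IR+olaparib 3). Counts within pairs of groups, and between OE and NC, depended on the libraries kept. Against 0 in each, radiation in NC called 3 with DESeq2, 41 with voom and 41 without the 2 tumours or without 3 (NC sham 3 as well). Radiation in OE called 32 with voom, 23 with the 2 groups alone, and 16 without 2 or 3 tumours. With olaparib in NC the counts were 9 with DESeq2, 41 with voom, 41 with the 2 groups alone and 41 without 2 or 3 tumours. With olaparib in OE they were 8 with voom and 1 without 3 tumours. OE against NC after radiation gave 34 with voom and 41 without 2 or 3 tumours, and the difference of the radiation effect by cell line gave 24 and 40. Shares of all tested genes moved as well: for OE against NC after radiation 0.755% were called higher by edgeR and 11.8% with voom. Without 3 tumours, of 16773 tested genes 2951 and 2096 fell in NC without and with olaparib, and 914 and 298 in OE. For OE against NC 3071 were called higher, and 1642 for the difference. Shares for the other voom counts and the 2 groups alone are not given, so those counts do not speak for the members alone. Leaving out 1 tumour gave 0 to 31 (radiation in NC), 0 to 41 (NC with olaparib), 0 to 1 (OE with olaparib, 1 without OE IR+olaparib 2), 0 to 10 (OE against NC with radiation), 0 to 1 (difference by cell line) and 0 to 0 for the other comparisons. In the 22 tumours these ranges were 41 to 41 for radiation and for OE against NC, and 35 to 41 for the difference by cell line. All 90 of the 96 named genes that were called by the coded groups lost that call by the written label. The other 6 were members not called by either grouping. The cause was not tested. No paired analysis was possible because replicate numbers were given in accession order and pair no tumours.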
